A study of Rattus norvegicus with 4 samples.

Results

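The open chromatin regions (OCRs) described here were called only at embryonic day 21 (E21) in rat retinal ganglion cells (RGCs) and lay in clusters along the chromosome. Their members were chosen by measured calls: an E21-only OCR was called in both E21 libraries and in neither library of postnatal day 11 (P11), and a clustered one belonged to a chain of 3 or more E21-only OCRs in which no gap to the next exceeded a fixed limit. The limit, given with the processing, admitted a gap of 12494 bp and not one of 12501 bp. There were 906 such OCRs in 285 chains, out of 224715 OCRs merged from the 4 libraries on the 20 numbered chromosomes. They made up 0.403% of all OCRs and 5.3% of the 17102 E21-only OCRs. Because the calls selected them, the absence of these OCRs at P11 is how they were found and is not a result.

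Each of the 4 ATAC-seq libraries held 300000 RGCs immunopanned from the retinas of Sprague Dawley rats, 2 libraries at E21 and 2 at P11, and each came from its own litter by the study's methods. The labels name no transgene or treatment, and age is the only difference they give between the groups. The stages were compared because embryonic RGCs regrow axons readily and postnatal RGCs do not. Whether the preparations held RGCs alone was not checked here, since no marker gene could be placed on the build of the lists. Positions are on build rn6 as in the lists, and genes, promoters and sequence motifs were not analysed here.

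ATAC-seq uses a transposase that cuts and tags DNA where it is not wrapped tightly by nucleosomes, so cuts pile up over promoters and enhancers in use. Distal enhancers are generally more specific to cell type and stage than promoters are. Several enhancers spaced over several kilobases can act on the same gene, and such groups are known around genes that define a cell's identity or developmental state. Whether the chains described here are of that kind cannot be read from OCR lists.

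The lists of numbered chromosomes held 123707 OCRs in E21 replicate 1, 151816 in E21 replicate 2, 152301 in P11 replicate 1 and 163714 in P11 replicate 2. The genome-wide background, the count expected at any base, was 4.80 in E21 replicate 1, 5.03 in E21 replicate 2, 4.30 in P11 replicate 1 and 4.17 in P11 replicate 2. Counts are called fragments throughout, but whether the caller counted whole fragments or single cut ends is not known here. The lowest pileup found at the summit of a called OCR was 14 fragments in either E21 library and 13 in either P11 library. The background and the lowest pileup come from 20000 OCRs per library with a −log10 p under 30, not from the whole list. More fragments are needed where the local background is higher. A missing call at P11 therefore means that the fragments there did not pass the limit of that place, not that the chromatin was closed. In a bulk library, fewer cells with an open site and a less open site in each cell cannot be told apart.

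E21-only OCRs were 7.61% of all OCRs, and P11-only OCRs, defined the same way, numbered 28103. Most E21-only OCRs stood alone, 13144 of them, and another 1526 pairs lay within the gap but had no further neighbour. Of the 285 chains, 243 had 3 members, 35 had 4, 6 had 5 and 1 had 7. With all 4 libraries, P11-only OCRs were clustered more often by the same rule. They were also more numerous on the same chromosomes, and a fixed gap limit ties the clustered share to density by construction. Of the P11-only OCRs, 4308 or 15.3% lay in chains of 3 or more, and the longest chain had 9. The contrast moved with the lists used. Where −log10 q was 5 or more, the clustered shares were 5.01% at E21 and 11.2% at P11. When the 4 lists were cut to equal length by −log10 q, the clustered OCRs numbered 1237 at E21 (6.19% of 19978 E21-only) and 1800 at P11 (9.13% of 19710 P11-only). Leaving out a library let 1 call define its stage, while the other stage still needed 2, so the rules were unlike. Without E21 replicate 1, the shortest list, 5818 OCRs were clustered at E21 (16.3%) and 5047 at P11 (16.7%). The E21 and P11 shares were 9.16% and 25.5% without E21 replicate 2, and 7.55% and 30.2% without P11 replicate 1. Without P11 replicate 2 they were 8.67% and 27.3%.

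**Figure D1:**
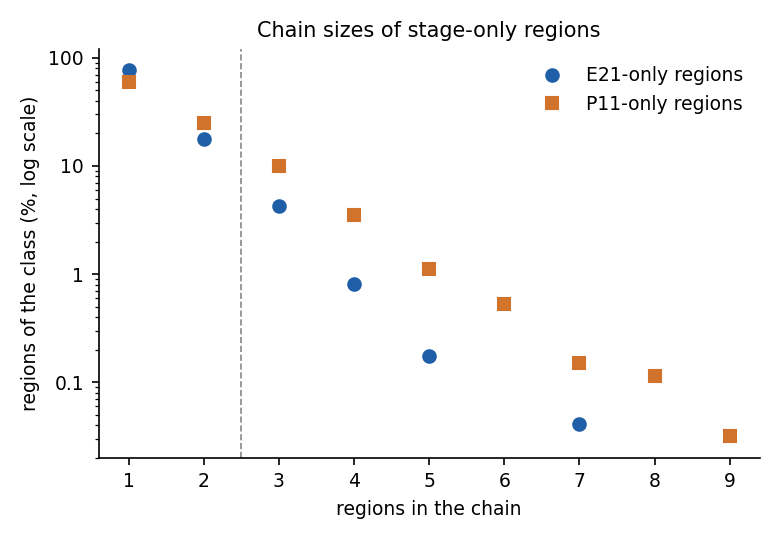
Share of E21-only (circles) and P11-only (squares) OCRs by the number of OCRs in their chain, as a percentage of the class on a log scale. To the right of the dashed line, which marks the limit of 3, the P11-only share lies above the E21-only share at each size that both classes have, and no E21-only chain had 6, 8 or 9 members. P11-only OCRs were more numerous, and a fixed gap limit ties chain size to density.

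The chain with the most members lay on chromosome 1 and held 7 OCRs in 32.0 kb (chr1:256364307-256396282). No other OCR of any library lay inside it, and the nearest OCR called in all 4 libraries was 82156 bp away. Its first member (chr1:256364307-256364821) was its strongest, with a pileup of 58 fragments in E21 replicate 1 and 68 in replicate 2. The fold over background there was 10.2 and 11.4. The sixth member (chr1:256383607-256384284) was the widest of the chain at 678 bp, with pileups of 43 and 47. The last member (chr1:256396035-256396282) was the weakest, with pileups of 18 and 28, and was separated from the rest by the largest gap in the chain, 11750 bp. Between these, 4 members had pileups of 32 to 56 in replicate 1 and 28 to 49 in replicate 2. The libraries differed at the third member (chr1:256375935-256376192), which had 49 fragments in replicate 1 and 28 in replicate 2.

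The 6 chains of 5 members lay on chromosomes 2, 3, 10 and 20, and differed in what lay between their members. On chromosome 20, a chain of 16.0 kb (chr20:18258349-18274343) held no other OCR, and its nearest OCR called in all 4 libraries was 8393 bp away. Its pileups ran from 17 to 32 in replicate 1 and from 26 to 40 in replicate 2. A chain of 25.3 kb on chromosome 2 (chr2:121154309-121179611) held 1 other OCR, which was called in a single library. Its outermost members were its strongest, at pileups of 38 and 58 for the first and 60 and 47 for the last. By contrast, a chain of 22.5 kb on the same chromosome (chr2:188639374-188661849) enclosed 4 OCRs called in all 4 libraries, so that stage-only and constant open chromatin alternated. The longest of these chains, on chromosome 10 (chr10:75913285-75951917), spanned 38.6 kb and enclosed 7 other OCRs, of which 1 was called only at P11. The other chains of 5 were at chr2:235605513-235620613, with 1 OCR of a single library inside, and chr3:170939455-170972279, with 3 OCRs called in all 4 libraries inside.

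Among the 35 chains of 4, the 8 shortest spanned 9.48 to 14.9 kb. On chromosome 2, chains at chr2:79104590-79115078 and chr2:249505272-249518523 held no other OCR. On chromosome 9, the chain at chr9:49465922-49480835 had the most sequence covered by its members, 3159 bp, and its nearest OCR called in all 4 libraries was 80799 bp away. Its widest member, at chr9:49479784-49480835, covered 1052 bp with pileups of 40 and 31. The most compact chain of all had 3 members in 1153 bp of chromosome 15 (chr15:40991086-40992238), and lay 319 bp from an OCR called in all 4 libraries. Its local background was 9.30 to 9.54 fragments in replicate 1 and 12.165 to 12.465 in replicate 2, against genome-wide values of 4.80 and 5.03, and its members had pileups of 34 to 46 and 44 to 56.

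Over all chains the span had a median of 14.0 kb and ran from 1.15 to 38.6 kb. Members covered a median of 9.17% of the span, so that most of a chain was sequence without an E21-only call. The 621 gaps between neighbouring members had a median of 5811 bp. The gap limit is a choice. The gap at the limit itself followed the OCR at chr20:9020970-9021295, and the next widest, 12494 bp, followed that at chr1:264481049-264481438. The narrowest gaps outside it were 12501 bp on chromosome 1, after the OCR at chr1:191027824-191028177, and 12505 bp after the OCR at chr7:61588367-61588574, and either one would have made a chain of 3. A limit of 5 kb gave 140 clustered OCRs, and a limit of 25 kb gave 2324.

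Inside the 285 chains lay 457 OCRs that were not E21-only. No other OCR lay inside 90 chains (31.6%). At least 1 OCR called in all 4 libraries lay inside 111 chains (38.9%), and an OCR of a single library inside 116 (40.7%). A P11-only OCR lay inside 40 chains (14.0%), 46 OCRs in all. Of the members, 204 (22.5%) lay within the gap limit of a P11-only OCR, compared with 26.8% of the 16196 other E21-only OCRs. For clustered P11-only OCRs the counts were 17 members (1.88%), compared with 2.56% of the other E21-only OCRs. The median distance to an OCR called in all 4 libraries was 8389 bp for members, 8880 bp for other E21-only OCRs and 6343 bp for clustered P11-only OCRs. The quartiles for members were 3407 and 17784 bp, so these distances overlapped broadly.

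Members were narrow and modest in signal. Their median width was 347 bp (161 to 1573 bp), the same as for other E21-only OCRs, and OCRs called in all 4 libraries had a median of 709 bp. The pileup had a median of 28 fragments in E21 replicate 1 (14 to 98) and of 33 in replicate 2 (15 to 111). At least 20 fragments were found in both libraries at 781 members (86.2%), and at least 30 in both at 351 (38.7%). The fold over background had a median of 4.15 in replicate 1 and 4.47 in replicate 2, compared with 4.48 and 4.68 in other E21-only OCRs and 7.24 and 7.95 in OCRs called in all 4 libraries. Local background was more than 2 times the genome-wide value at 94 members in replicate 1 and 129 in replicate 2.

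To set OCRs of different libraries side by side, the OCRs of a list were ordered by −log10 q and given a percentile rank, from 0 for the weakest to 100 for the strongest. Members had median ranks of 27.4 in replicate 1 and 35.8 in replicate 2, a little under the 30.4 and 37.9 of other E21-only OCRs and far under the 64.9 and 72.0 of OCRs called in all 4 libraries. These values describe the members, since calls at each level chose them. Many members were weak calls, with 401 (44.3%) ranked under 25 in replicate 1 and 283 (31.2%) in replicate 2. Only 7 members ranked at or above 75 in both libraries.

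The strongest member by mean rank was on chromosome 4 (chr4:169835325-169835740), the last of a chain of 3, with ranks of 80.5 and 84.5 and pileups of 85 and 105 fragments. The next was on chromosome 18 (chr18:62682258-62682709), the first of a chain of 3, with pileups of 72 and 81. The third was an OCR of 1022 bp on chromosome 2 (chr2:113750515-113751536), whose fold over background was 14.9 in replicate 1 and 10.5 in replicate 2. The 2 libraries differed more for this member than for the first, at pileups of 97 and 67. These members lay 4302, 41096 and 53625 bp from an OCR called in all 4 libraries. A member on chromosome 11 (chr11:69552154-69552624) was nearer to one, at 858 bp, with pileups of 78 and 110. The other 6 of the 10 strongest had pileups of 54 to 73 in replicate 1 and 68 to 85 in replicate 2, and 1 of them was the first member of the chain of 7 on chromosome 1.

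**Figure D2:**
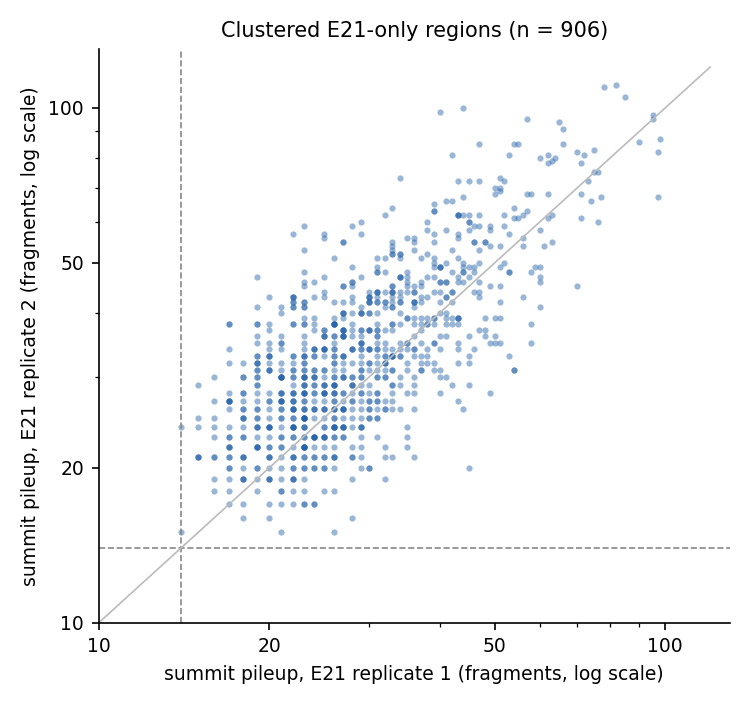
Fragments at the summit of each of the 906 members in E21 replicate 1 (horizontal axis) and E21 replicate 2 (vertical axis), both on log scales. Dashed lines mark the lowest called pileup of 14 and the solid line marks equal values, and most points lie below 50 fragments in both libraries.

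The 2 E21 libraries ordered the members alike in part. Spearman's rho of the fold over background between them was 0.611 over the 906 members, and 0.599 over the other E21-only OCRs. Both values are descriptions across OCRs of the same 2 libraries. Replicate 2, the longer list, ranked 579 members (63.9%) higher than replicate 1 did, and 62.6% of other E21-only OCRs. Summits in the 2 libraries lay within 50 bp of each other at 65.8% of members, at 65.7% of other E21-only OCRs and at 70.0% of OCRs called in all 4 libraries.

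Members of the same chain were not alike in strength. The SD of the mean rank within chains was 16.7 percentile points, and over all members it was 16.8. The share of the variance in rank that lay between chains was 0.014. Within a chain the strongest and the weakest member differed by a median of 28.9 points. All members ranked under 50 in 165 chains, and 11 chains had a member at or above 75. In 76 of the 243 chains of 3 (31.3%) the strongest member was the middle one.

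Clusters were spread unevenly over the chromosomes. Chromosome 3 held the most members, 104 in 31 chains, which was 8.37% of its E21-only OCRs (95% Wilson interval 6.96 to 10.0%). The share was highest on chromosome 12, at 8.99% (6.70 to 12.0%), and lowest on chromosome 4, at 2.35% (1.62 to 3.40%), where 1147 E21-only OCRs gave 27 members. Chromosome 10 had the most E21-only OCRs per Mb, 9.91, and a clustered share of 7.53%. The intervals cover counting error only and are too narrow, since members of a chain enter together. Over the 20 chromosomes the clustered share went with the number of E21-only OCRs per Mb (r = 0.545, rho = 0.441). A fixed gap limit ties the clustered share to density by construction, so this relation is not a separate result. For P11-only OCRs the same relation had r = 0.188 and rho = 0.317. The clustered shares of the 2 classes hardly went together (r = 0.107, rho = 0.0571). Chromosomes share libraries and list lengths, so all of these are descriptions.

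**Figure D3:**
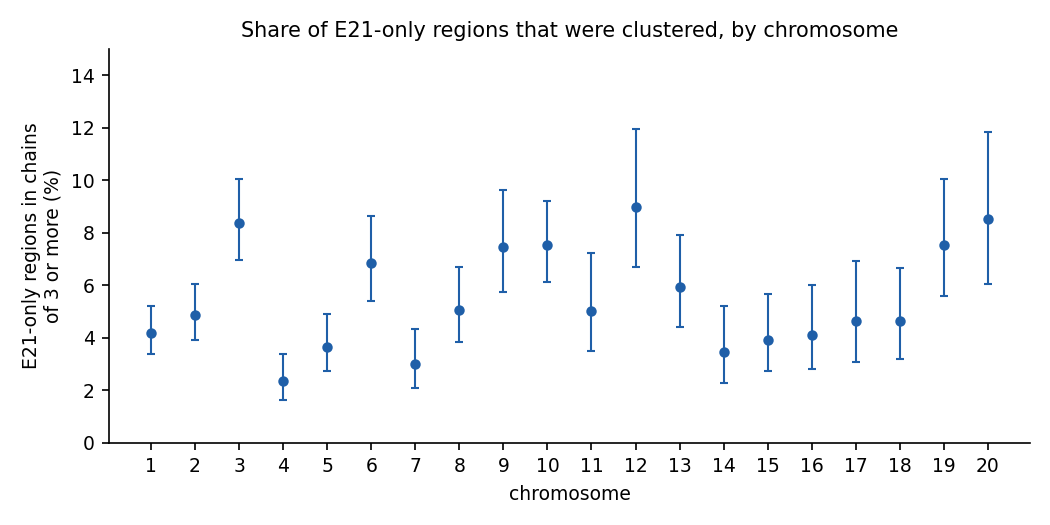
Percentage of E21-only OCRs that lay in chains of 3 or more on each numbered chromosome, with 95% Wilson intervals as bars. The points run from 2.35% on chromosome 4 to 8.99% on chromosome 12, and the value over all chromosomes, not drawn, was 5.3%.

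Some chains lay close to others. Members were found in 250 of the 2610 windows of 1 Mb that held an OCR. There were 2 or more chains in 34 windows, which held 237 members. The most crowded window was 45000001 to 46000000 on chromosome 9, with 13 members in 4 chains out of 18 E21-only OCRs. Its first chain began at 45102596 and its last ended at 45246087. Pileups there were 19 to 38 in replicate 1 and 20 to 60 in replicate 2. The same window held 22 P11-only OCRs. On chromosome 19, the window 46000001 to 47000000 held 11 members in 3 chains and 3 P11-only OCRs among its 101 OCRs. One member in it, at chr19:46031420-46031954, had pileups of 40 and 98, so the 2 E21 libraries differed widely there. The closest chains were on chromosome 10, where the chain ending at 10211350 was followed by the next after 12673 bp.

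Measures that the choice of members did not use were then compared between the stages. The first was the strength of constant OCRs beside the members. An OCR called in all 4 libraries was counted as ranked higher at a stage if its rank in each library of that stage exceeded its rank in each library of the other, with a difference of 25 points or more between the means. Of the 81097 OCRs called in all 4 libraries, 8.64% were ranked higher at E21 and 12.3% at P11. Of the 490 within the gap limit of a member, 49 (10.0%; 95% Wilson interval 7.65 to 13.0%) were ranked higher at E21 and 46 (9.39%; 7.11 to 12.3%) at P11. Both intervals held the background, at P11 only narrowly (12.26% against an upper limit of 12.30%). They cover counting error only and are too narrow, since OCRs beside the same chain enter together. The shares moved with the distance and with the difference required. Within 5 kb, 7.22% were ranked higher at E21 and 8.30% at P11, and of the 1434 within 50 kb, 11.8% and 10.0%. At a difference of 10 points the shares were 23.9% and 18.2%, against backgrounds of 18.9% and 23.4%. Near other E21-only OCRs the shares were 9.89% and 12.51%, and near clustered P11-only OCRs they were 8.40% and 16.0%.

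The mean rank of these 490 neighbours gave a value per library. Relative to all OCRs called in all 4 libraries, the neighbours ranked lower by 2.79 points in E21 replicate 1, 2.58 in E21 replicate 2, 5.08 in P11 replicate 1 and 5.33 in P11 replicate 2. The values of the 2 stages did not overlap. The offset was −2.68 ± 0.147 at E21 (SD, n = 2) and −5.21 ± 0.178 at P11 (SD, n = 2), a difference of 2.53 points (two-sided exact permutation test over libraries, p = 0.333, the smallest p that 2 against 2 allow). Leaving out a library also redefined the members and so the neighbours. Without E21 replicate 2 the difference was 1.22 points over 1195 neighbours, and without P11 replicate 2 it was 1.65 over 1339. With all 4 libraries, the difference beside other E21-only OCRs was 0.394 points. That value averages opposite signs. The difference there was −0.954 points under 2 kb, −0.988 at 2 to 5 kb and 1.402 from 5 kb to the gap limit. The offset of neighbours of members minus that of neighbours of other E21-only OCRs was −0.463 in E21 replicate 1, −0.743 in E21 replicate 2, −2.68 in P11 replicate 1 and −2.80 in P11 replicate 2, a difference of 2.13 points (exact permutation test, p = 0.333). Beside clustered P11-only OCRs the difference between stages was −1.77 points. By distance from the nearest member, the difference was 1.95 points under 2 kb, 2.89 at 2 to 5 kb, 2.81 at 25 to 50 kb and 1.61 at 100 to 250 kb. The standard errors over OCRs were 1.498, 1.734, 0.902 and 0.364, so the values nearest the members were the least certain. The difference was not limited to the immediate surroundings of the chains. Beside other E21-only OCRs it was 1.219 points from the gap limit to 25 kb, 0.454 at 25 to 50 kb and −0.856 at 100 to 250 kb.

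**Figure D4:**
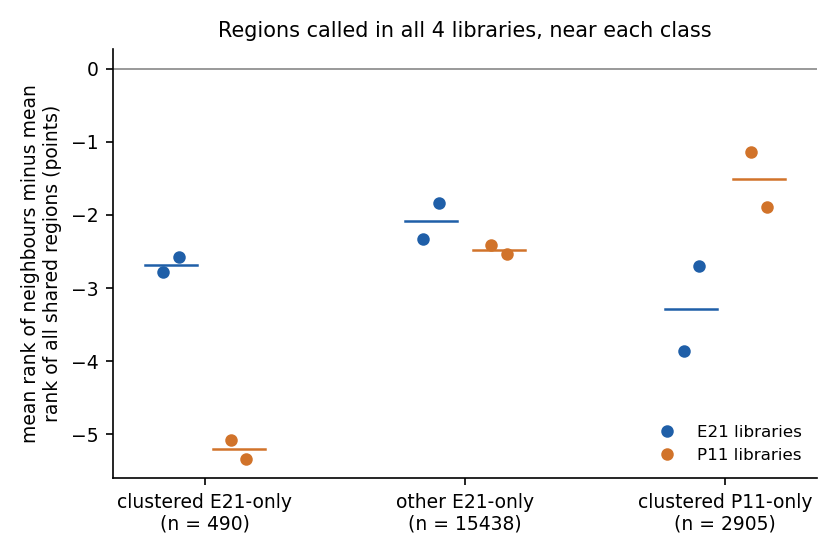
Mean rank of the OCRs called in all 4 libraries that lay within the gap limit of each class, minus the mean rank of all such OCRs, in percentile points. Points are single libraries and lines are stage means, and beside clustered E21-only OCRs both E21 libraries (−2.79 and −2.58) lie above both P11 libraries (−5.08 and −5.33).

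The second measure was the OCRs called in 3 libraries. Of the 28082 such OCRs, 45.5% lacked a P11 library. Of the 190 within the gap limit of a member, 88 did (46.3%; 39.4 to 53.4%), which was not distinguishable from the background. The share was 47.9% near other E21-only OCRs, 38.2% near clustered P11-only OCRs and 38.7% near other P11-only OCRs.

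The third was the OCRs called in a single library. Of those found in E21 replicate 1 alone, 1.18% lay within the gap limit of a member, and of those in E21 replicate 2 alone, 0.965%. The shares were 0.579% in P11 replicate 1 and 0.578% in P11 replicate 2. Both E21 values were above both P11 values, by 0.495 percentage points on average (exact permutation test, p = 0.333). Beside the other E21-only OCRs the shares were 20.9% and 22.5% for the E21 libraries and 18.6% and 16.8% for the P11 libraries. Beside clustered P11-only OCRs the order was the opposite, with 2.96% and 2.94% for the E21 libraries and 4.62% and 4.15% for the P11 libraries. OCRs found in a single library thus lay beside clusters of their own stage in a larger share than single-library OCRs of the other stage did, and the libraries of the stages did not overlap in any of the 3 comparisons. Single-library OCRs and members were sorted by the same calls, so this order is not separate support for the clusters.

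Membership depended on the calls. When OCRs under a −log10 q of 5 were dropped, 746 members (82.3%) remained E21-only and 539 (59.5%) remained in a chain of 3 or more. With lists of equal length, 694 (76.6%) remained E21-only and 440 (48.6%) remained clustered. Where E21-only OCRs with a P11 call within 1 kb were left out, 504 members remained clustered in 159 chains. Leaving out a library, so that the other defined its stage, raised the number of clustered E21-only OCRs each time. Dropping E21 replicate 1 gave 5818 and dropping E21 replicate 2 gave 2173, while dropping P11 replicate 1 gave 1667 and P11 replicate 2 gave 2183. A P11 call lay within 1 kb of 182 members (20.1%) and of 19.6% of other E21-only OCRs.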

How the data were processed

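ATAC-seq was performed on 4 libraries of immunopanned rat RGCs, 2 at E21 and 2 at P11. Per the study's methods, the authors processed the reads with AIAP, and the submitters' processing notes name MACS2, Rnor_6.0 and rn6. Caller settings are not given in the sources used here. Peaks were called per library, without pooling. Each deposited list gives a score, a fold (the ratio of pileup to local background, each plus 1), a −log10 p value and a −log10 q value per peak. The lowest deposited −log10 q was 2.02, 2.02, 2.02 and 2.01.

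Python 3.11.15 with pandas 2.3.3, numpy 2.4.6 and scipy 1.17.1 was used. Duplicate lines were dropped, peaks overlapping by at least 1 bp were merged, and E21-only regions were chained across gaps of at most 12.5 kb, which was also the distance for neighbours. Lists of equal length held the 125000 peaks of highest −log10 q. The pileup and background were solved from the fold and p value (largest error of −log10 p for members, 5.16e-05). Library-wide values used the first 20000 peaks per library with a −log10 p under 30. Read totals were not used, so the genome-wide background stands for depth. Scripts were tested on simulated data. Values over 2 libraries are mean ± SD with a two-sided exact permutation test, which cannot go below p = 0.333. Intervals on shares are Wilson intervals (95%), which hold for counting error alone. The members and lists were chosen with earlier results of these data known. Named were the 15 chains with the most members (ties to the shorter span), the 10 members with the highest mean rank, and the 2 gaps nearest the limit on each side. The crowded window, the most compact chain and the closest chains were chosen after their values were seen. Alternatives were stricter calls, equal list lengths, other gaps, distances and rank limits, chromosome X, a replicate block and leaving out each library. The reference tables held another build than rn6, so genes, promoters, motifs and markers were not analysed here. Lists of merged regions were not tested with a count model, because the deposited values are not counts.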

Additional observations from a re-analysis of the deposited data

How the results depend on the processing

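The number of clustered E21-only OCRs was within 1.5 times of the reported number under 4 of the 12 alternatives. Clustered E21-only OCRs, their chains and clustered P11-only OCRs numbered 140, 45 and 847 with gaps of at most 5 kb, 2324, 688 and 9650 with gaps of at most 25 kb, 177, 42 and 1527 in chains of 4 or more, and 504, 159 and 2450 without OCRs that had a call of the other stage within 1 kb. Clustered P11-only OCRs numbered 2535 where −log10 q was 5 or more and 1800 with lists of equal length. Leaving out 1 library, so that 1 call defined its stage, gave 1667 to 5818 clustered E21-only OCRs in 517 to 1690 chains and 5047 to 15423 clustered P11-only OCRs; the largest E21 count and the smallest P11 count were both without E21 replicate 1, the shortest list.

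The share of shared neighbours ranked higher at E21 was 13.5% with lists of equal length (background 11.3%), 13.1% with ranks among shared OCRs only (11.6%) and 7.22% within 5 kb (8.64%). The shares ranked higher at E21 and at P11 were 23.9% and 18.2% at a difference of 10 points (18.9% and 23.4%), and 3.06% and 2.86% at 40 points (2.66% and 4.79%). Without 1 library they were 7.70% (7.59%) to 14.9% (11.3%) and 10.8% (12.45%) to 16.9% (18.7%). Of neighbours in 3 libraries, 63.9% lacked a P11 library with lists of equal length (59.4%). The rank offset kept its direction under all 10 alternatives, at 1.22 to 2.70 points, the lowest without E21 replicate 2.

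With a replicate block the shares were 5.71% and 5.31% (backgrounds 4.52% and 7.13%) and the offset was 2.53 (exact p = 0.5). Litters were separate, and deviations of same-numbered libraries correlated at 0.0272 over 81097 OCRs, so the numbers did not pair libraries. Planned comparisons of promoters, gene lists, GC content and motifs were not run. With 2 libraries a stage, no test could reach 0.05, and absence of a call is limited by depth and by the local background.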
